A study of Mus musculus with 6 samples.

Results

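The MondoA system and the alpha-arrestins were followed here as 8 genes of the 21853 in the table, picked by symbol: the glucose sensors Mlxip (MondoA), Mlxipl (ChREBP) and Mlx, and the alpha-arrestins Txnip, Arrdc1, Arrdc2, Arrdc3 and Arrdc4. All 8 were found, and 7 passed the filter on low values, which asked for 1 FPKM or more on average across all 6 libraries. FPKM count sequenced fragments per length of transcript and per depth of library. The genes were picked with the differences between these same groups known. Their changes are therefore a description, given with errors and without p-values. The arrestins split: Txnip, Arrdc3 and Arrdc4 were lower with red clover extract, at 0.412, 0.345 and 0.558 times the control mean, while Arrdc1 and Arrdc2 were at 1.00 and 1.05 times it. Among the sensors, Mlxip was higher at 1.35 times, Mlx was at 1.01 times and Mlxipl was close to 0 in every library.

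The cells were mouse embryonic fibroblasts of the C57BL/6J strain, labelled with an age of 12 days and an xCT knockout genotype, which both groups share. RCE libraries (n = 3) came from cells given red clover extract and control libraries (n = 3) from cells given water. The study's subject is how the extract acts on ferroptosis, the iron-driven cell death to which loss of the cystine importer xCT exposes cells. Dose, time of exposure and the glucose of the medium are unknown here. The labels do not name separate cultures, so the spread between replicates may be technical.

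MondoA and ChREBP are transcription factors that pair with Mlx and respond to glucose-6-phosphate, the first product of glucose inside the cell. In mouse and human cells the pair binds carbohydrate response elements, in which E-box-like sequences stand 5 bases apart, and Txnip and Arrdc4 are its best known targets. Txnip binds thioredoxin and lowers glucose uptake by promoting removal of the transporter GLUT1 from the cell surface, so it closes a feedback loop on glucose entry. Alpha-arrestins as a family carry PPxY motifs that recruit ubiquitin ligases of the NEDD4 family to membrane proteins.

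The promoter windows of the 3 arrestins that were lower are shown because Txnip and Arrdc4 are textbook MondoA targets and because the 3 shared a direction of change. They are RefSeq sequences on GRCm38.p6, the assembly called mm10, from 250 bases before to 50 bases after the annotated start, written 5′ to 3′ on the strand of the gene. Txnip is at chr3:96557707-96558006 on the plus strand, Arrdc4 at chr7:68749189-68749488 on the minus strand and Arrdc3 at chr13:80883134-80883433 on the plus strand. Capitals mark matches to the E-box CACGTG, to its variant CACGAG and to CCAAT, each searched on both strands, and in Txnip also the 5 bases between the paired variants.
Txnip: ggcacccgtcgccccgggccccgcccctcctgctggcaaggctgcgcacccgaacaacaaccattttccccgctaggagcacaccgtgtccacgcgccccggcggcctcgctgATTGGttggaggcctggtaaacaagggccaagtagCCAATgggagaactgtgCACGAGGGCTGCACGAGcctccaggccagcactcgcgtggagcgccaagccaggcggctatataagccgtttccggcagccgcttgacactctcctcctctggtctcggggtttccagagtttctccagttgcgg
Arrdc4: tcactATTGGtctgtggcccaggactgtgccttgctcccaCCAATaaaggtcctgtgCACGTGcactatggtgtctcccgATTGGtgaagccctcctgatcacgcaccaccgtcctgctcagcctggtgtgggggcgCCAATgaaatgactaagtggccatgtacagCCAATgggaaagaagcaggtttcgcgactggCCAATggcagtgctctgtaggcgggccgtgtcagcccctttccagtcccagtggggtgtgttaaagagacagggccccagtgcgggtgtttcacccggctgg
Arrdc3: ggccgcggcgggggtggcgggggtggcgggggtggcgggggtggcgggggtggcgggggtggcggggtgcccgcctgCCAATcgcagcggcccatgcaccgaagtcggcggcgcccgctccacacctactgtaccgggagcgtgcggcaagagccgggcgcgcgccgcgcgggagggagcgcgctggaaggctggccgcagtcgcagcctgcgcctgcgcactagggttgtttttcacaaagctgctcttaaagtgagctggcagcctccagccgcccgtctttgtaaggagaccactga

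The Txnip window held 2 copies of CACGAG, starting 85 and 74 bases before the start, exactly 5 bases apart. Such a pair, of hexamers CACGNG on either strand with 5 bases between them, stood in 27 of 32851 mouse promoter windows of this length (0.0822%). The pair was searched with the Txnip sequence in view. The Arrdc4 window held no such pair, 1 E-box CACGTG starting 193 bases before the start, and 6 CCAAT boxes. CACGTG was in 7.15% of all windows, CACGAG in 6.47% and 2 or more CACGAG in 0.359%. CCAAT was in 37.4%, and 3 or more CCAAT in 3.37%. The Arrdc3 window held 1 CCAAT and neither hexamer, and its other 2 annotated windows held no hexamer either. Of the arrestins that were not lower, Arrdc1 had 2 copies of CACGAG, 34 bases apart by their nearest ends, and no CCAAT, and Arrdc2 had 1 CACGAG and 3 CCAAT. Mlx had 1 CACGTG and 2 CCAAT, and Mlxip had 2 CCAAT and neither hexamer. A window of Mlxipl had 1 CACGTG, 1 CACGAG and 1 CCAAT, and its other annotated window had none of them. These are letter matches in a short window and nothing was measured on binding. Of the 26 genes with the pair 13 were tested, and 3 of them were called lower, one being Txnip itself (median change of the 13, 0.03). Of all genes tested 6.77% were called lower, where called means an adjusted p below 0.05 in limma with Benjamini-Hochberg adjustment over all 10870 genes tested. The 3 were Txnip, Fem1b (-0.48, adjusted p = 0.00234) and Nfkb2 (-0.16, adjusted p = 0.0469), the other two named after their values were seen. The call of Nfkb2 ended whichever single library was left out (adjusted p = 0.0658 to 0.175), with no filter (0.0523) and with a filter at 5 FPKM (0.0553). All changes here are RCE minus control on the log2(FPKM + 1) scale, which understates the change of low genes.

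The libraries held 45650000 to 59000000 fragments, read from the steps between low FPKM values, and 10766 to 10924 genes reached 1 FPKM. Slc7a11, which encodes xCT, was at 0.009, 0.017 and 0.007 FPKM in RCE replicates 1, 2 and 3, and at 0.013, 0.027 and 0.037 FPKM in control replicates 1, 2 and 3. An exact permutation test, 2-sided, gave p = 0.2. With this number of libraries it cannot go below 0.1, so it could not have passed 0.05. Over all genes, 1910 genes were called higher with the extract and 736 lower. Higher calls were 72.2% of the total, but 45.7% after median-of-ratios scaling and 47.8% after quantile normalization. Replicate 1 of both groups stood apart from replicates 2 and 3 on a principal component with 36.5% of the variance, so changes within each replicate number are given below as well. The labels do not say that libraries of the same number were paired, and the values did not tell numbers 2 and 3 from each other. A fit with replicate number as a block called 62.5% of all genes, so its adjusted p-values below are read with that share. All 11 fibroblast markers were above 1 FPKM on average. Their summed level was 5683 to 6047 FPKM in RCE and 6249 to 6642 FPKM in control. Of the 11, 2 were called lower, Pdgfrb and Dcn, where 6.77% of all genes were. With replicate number as a block 8 of the 11 were called lower, where 15.9% of all genes were. The call of Dcn ended whichever single library was left out (adjusted p = 0.0522 to 0.133), with no filter (0.0985) and with a filter at 5 FPKM (0.0611). That of Pdgfrb ended without replicate 2 or 3 of either group (adjusted p = 0.0570 to 0.0876), with no filter (0.0555) and with quantile normalization (0.0565). The leukocyte list summed to 4.06 to 4.84 FPKM in RCE and 5.15 to 5.72 FPKM in control, and the epithelial list to 1.55 to 2.61 FPKM in RCE and 2.18 to 3.11 FPKM in control. The endothelial list summed to 1.33 to 1.60 FPKM in RCE and 1.42 to 1.66 FPKM in control. All 4 adipocyte markers were below 0.1 FPKM in every library, with Cidec and Lep listed at 0. In the skeletal muscle list, which summed to 125.9 to 145.9 FPKM in RCE and 116 to 135 FPKM in control, the signal came from Des and Acta1, and Myod1 was listed at 0 in every library. Des was called higher (0.40, adjusted p = 0.0203), a call that ended without control replicate 2 or 3 or RCE replicate 3 (adjusted p = 0.0612 to 0.0794), with no filter (0.0624) and with median-of-ratios scaling (0.0715). The neuronal list summed to 11.6 to 12.5 FPKM in RCE and 9.80 to 10.7 FPKM in control, nearly all of it from Tubb3. Tubb3 was called higher (0.21, adjusted p = 0.0258), a call that ended when any library other than RCE replicate 1 was left out (adjusted p = 0.0502 to 0.110), with median-of-ratios scaling (0.143) and with quantile normalization (0.105). The part of these lists in the changes below was not tested.

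Txnip was the most abundant member. It is encoded on chromosome 3 from 96557957 to 96561883 (ENSMUSG00000038393, plus strand, 8 exons in its longest transcript). Its level was 19.4, 20.3 and 20.9 FPKM in RCE replicates 1, 2 and 3, and 49.0, 49.2 and 49.1 FPKM in control replicates 1, 2 and 3. The highest RCE library lay far below the lowest control library, and the control libraries differed by no more than 0.3 FPKM. The mean was 20.2 ± 0.778 FPKM with the extract and 49.1 ± 0.110 FPKM in control (SD, n = 3), 58.8% lower, a change of -1.24 (SE 0.04, 95% interval -1.35 to -1.13). Within replicate numbers 1, 2 and 3 the change was -1.29, -1.23 and -1.19. Between 2503 and 7511 fragments lay behind each of these values, counted on the longest transcript. The spread between the control libraries was smaller than the counting error of such numbers, so it understates the error of a library. In bulk RNA, fewer cells that make a transcript and less of it per cell cannot be told apart.

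Arrdc3, whose human product sends beta-adrenergic receptors and an integrin to degradation, had the most negative change of the 7 members tested. The gene lies on chromosome 13 from 80883384 to 80896042 (ENSMUSG00000074794, plus strand). It was at 3.65, 3.69 and 3.86 FPKM in the RCE replicates, and at 10.4, 11.1 and 11.0 FPKM in the control replicates. The groups were separated by more than 6 FPKM, with little spread inside either. Means of 3.73 ± 0.112 FPKM with the extract and 10.8 ± 0.334 FPKM in control gave 65.5% less and a change of -1.32 (SE 0.04, 95% interval -1.42 to -1.22).

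Arrdc4, the arrestin closest to Txnip in its reported effect on glucose uptake, lies on chromosome 7 from 68736995 to 68749241 (ENSMUSG00000042659, minus strand). Its levels were 5.59, 6.18 and 6.30 FPKM in the RCE replicates, against 10.6, 11.3 and 10.5 FPKM in the control replicates. The groups did not overlap, and RCE replicate 1 was the lowest of the 6 libraries. Means were 6.02 ± 0.377 FPKM with the extract and 10.8 ± 0.402 FPKM in control, 44.2% lower, with a change of -0.75 (SE 0.06, 95% interval -0.88 to -0.62). In control cells Arrdc3 and Arrdc4 stood at the same level, with a ratio of 1.00 ± 0.0310 between their FPKM, while with the extract the ratio was 0.621 ± 0.0280 (SD, n = 3). The intervals of the changes of Arrdc3 and Arrdc4 did not meet.

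Arrdc1, which in human cells drives the budding of vesicles from the plasma membrane, lies on chromosome 2 from 24925352 to 24935252 (ENSMUSG00000026972, minus strand). Its levels were 4.12, 4.02 and 3.81 FPKM in the RCE replicates, and 4.32, 3.65 and 3.97 FPKM in the control replicates. The groups overlapped. The change was 0.00 with a 95% interval of -0.14 to 0.15. Arrdc2, the lowest of the arrestins measured above the filter, lies on chromosome 8 from 70835129 to 70839720 (ENSMUSG00000002910, minus strand). It was at 2.08, 1.84 and 1.87 FPKM in the RCE replicates, and at 1.83, 1.94 and 1.73 FPKM in the control replicates. These overlapped too, with a change of 0.05 and an interval of -0.07 to 0.17. Only 201 to 255 fragments lay behind an Arrdc2 value. Both intervals exclude a fall of the size seen for Arrdc4.

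**Figure D1:**
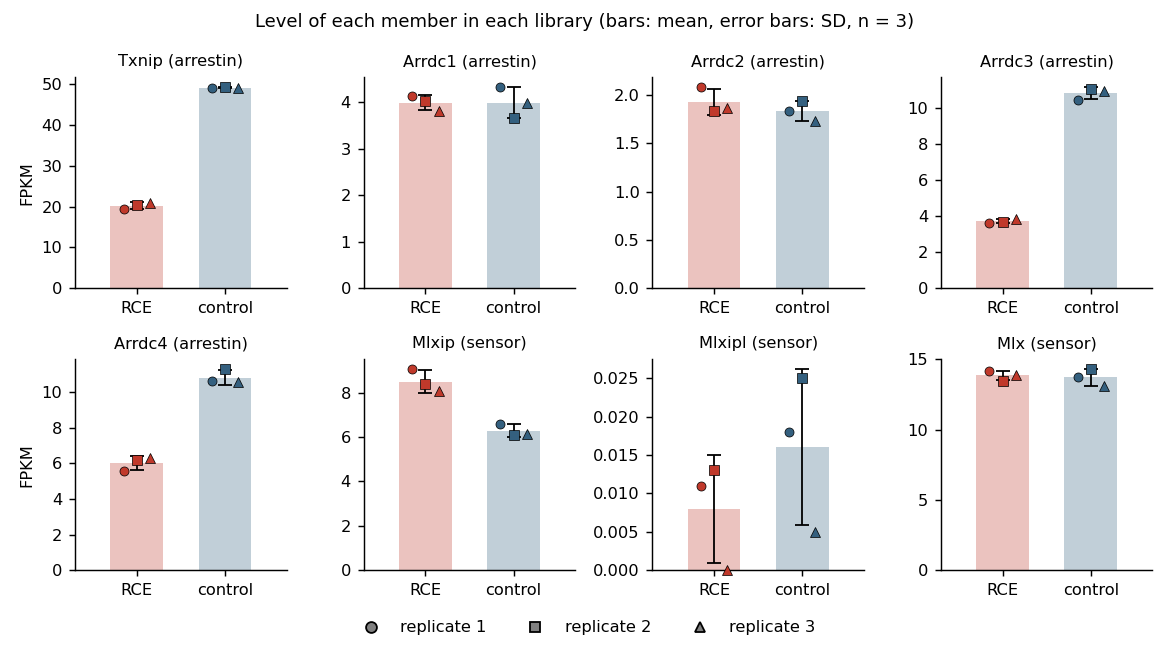
FPKM of the 8 genes in the 3 RCE and 3 control libraries. Each panel has its own linear axis from 0, bars give the mean, error bars the SD (n = 3), and marker shapes the replicate number. Txnip, Arrdc3 and Arrdc4 are lower in every RCE library than in any control library and Mlxip is higher, whereas Arrdc1, Arrdc2 and Mlx overlap and Mlxipl stays at or below 0.025 FPKM.

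No sensor was lower beyond the spread between replicates. Mlxip, the MondoA gene, lies on chromosome 5 from 123394798 to 123457932 (ENSMUSG00000038342, plus strand, 17 exons). It was at 9.04, 8.37 and 8.05 FPKM in the RCE replicates, and at 6.61, 6.11 and 6.14 FPKM in the control replicates. Every RCE library was above every control library, and replicate 1 was the highest in each group. Means were 8.49 ± 0.508 FPKM with the extract and 6.29 ± 0.277 FPKM in control, with a change of 0.38 (SE 0.06, 95% interval 0.25 to 0.51). The change was 0.40, 0.40 and 0.34 within replicate numbers 1, 2 and 3.

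Mlx, the partner that both MondoA and ChREBP need, lies on chromosome 11 from 101087277 to 101092207 (ENSMUSG00000017801, plus strand). It was the most abundant of the sensors, at 14.2, 13.5 and 13.9 FPKM in the RCE replicates, and at 13.7, 14.3 and 13.1 FPKM in the control replicates. The groups overlapped and the change was 0.01 (95% interval -0.10 to 0.13). The ratio of Mlx to Mlxip in FPKM was 1.63 ± 0.0840 with the extract and 2.18 ± 0.137 in control. Mlxipl, on the same chromosome as Mlxip from 135089890 to 135138382 (ENSMUSG00000005373, plus strand), was at 0.011, 0.013 and 0 FPKM in the RCE replicates, and at 0.018, 0.025 and 0.005 FPKM in the control replicates. Fewer than 5 fragments lay behind each value, so no difference was detectable at this depth. ChREBP is known for its work in liver and fat and MondoA for its work in muscle and many other tissues.

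Of the 5 arrestins 3 were called lower by limma and the other two were not called, where 6.77% of all 10870 genes tested were called lower. Of the 2 sensors tested 1 was called higher and the other was not called, where 17.6% of all genes were called higher and 24.3% were called in either direction. These shares stand beside the counts as background, and nothing is read from them since the same contrast was used to pick the genes. The calls were the same with replicate number as a block, where 62.5% of all genes were called, 15.9% lower and 46.6% higher. The groups did not overlap for 4 of the 7 members tested, and for 42.2% of all genes (10.9% with RCE lower, 31.2% with RCE higher). The median change was -0.75 over the 5 arrestins and 0.20 over Mlxip and Mlx, against 0.08 over all genes tested. Of the genes tested, 36 had a more negative change than Arrdc3, 41 than Txnip and 111 than Arrdc4, and 328 had a larger positive change than Mlxip.

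**Figure D2:**
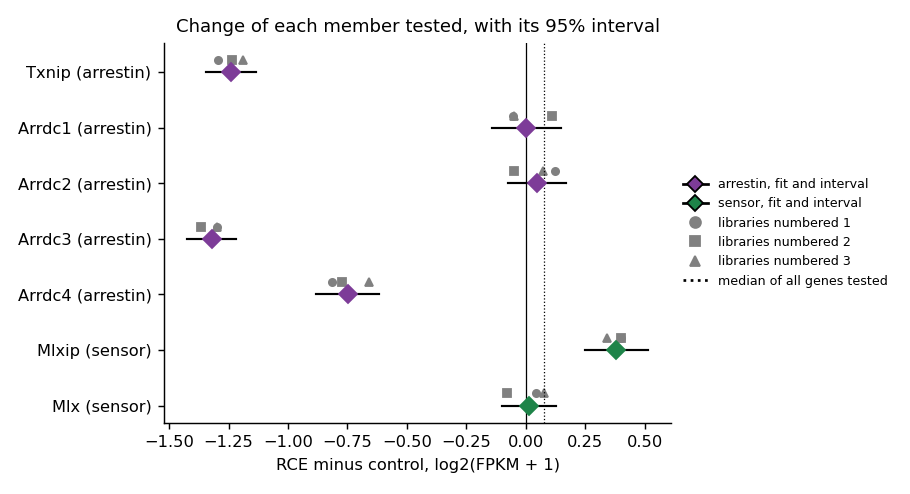
Change of the 7 members tested, RCE minus control on the log2(FPKM + 1) scale. Diamonds and lines are the limma estimate with its 95% interval, and grey markers the change within each replicate number. Txnip, Arrdc3 and Arrdc4 lie between -1.32 and -0.75, Mlxip lies at 0.38, and the intervals of Arrdc1, Arrdc2 and Mlx include 0.

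Summed over the 5 arrestins, the level was 34.8, 36.1 and 36.8 FPKM in the RCE replicates, against 76.2, 77.2 and 76.2 FPKM in the control replicates. The groups were far apart. Txnip made up 56.3 ± 0.643% of the sum with the extract and 64.2 ± 0.303% in control. Txnip, Arrdc3 and Arrdc4 together made up 83.5 ± 1.21% with the extract and 92.4 ± 0.429% in control. Set against the sensor, Txnip had 2.14, 2.43 and 2.60 times the FPKM of Mlxip in the RCE replicates, and 7.42, 8.06 and 7.99 times in the control replicates. By level with the extract the order was Txnip, Mlx, Mlxip, Arrdc4, Arrdc1, Arrdc3, Arrdc2 and Mlxipl. The levels of Arrdc1 (3.81 to 4.12 FPKM) and Arrdc3 (3.65 to 3.86 FPKM) overlapped there. In control it was Txnip, Mlx, Arrdc3, Arrdc4, Mlxip, Arrdc1, Arrdc2 and Mlxipl. Arrdc3 and Arrdc4 overlapped, and every other pair of neighbours was separated.

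**Figure D3:**
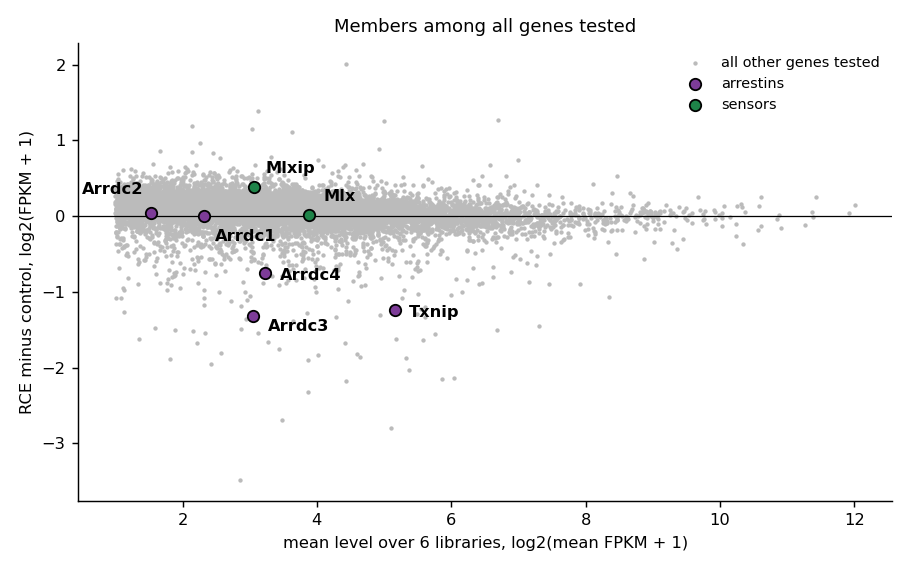
Mean level over the 6 libraries (x axis, log2 of mean FPKM + 1) against change (y axis, RCE minus control on the log2(FPKM + 1) scale) for the 10870 genes tested. The 5 arrestins are purple and the 2 sensors tested are green. Txnip, Arrdc3 and Arrdc4 lie below the main cloud, Mlxip lies above 0, and Arrdc1, Arrdc2 and Mlx lie within it.

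In GENCODE M21 all 5 arrestins have 8 exons in their longest transcript, as does Mlx, whereas Mlxip and Mlxipl have 17. The arrestin transcripts run from 1666 bases (Arrdc1) to 4132 bases (Arrdc3), and that of Mlxip is 7303 bases long. Exons of Txnip overlap the antisense gene Gm15441, those of Mlxip overlap Gm15747 and those of Mlxipl overlap Gm43500. Exons of Mlx overlap the protein-coding gene Psmc3ip on the other strand. Psmc3ip was at 1.64, 1.34 and 1.61 FPKM in the RCE replicates, and 1.10, 0.876 and 1.00 FPKM in the control replicates. It was called higher (0.35, adjusted p = 0.0143), a call that ended with control replicate 2 or 3 or RCE replicate 3 left out (adjusted p = 0.0533 to 0.0561) and with quantile normalization (0.0805). Whether the authors counted by strand is unknown here, so reads may have been shared between such partners.

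Among other reported targets of MondoA and ChREBP, 12 of 18 genes were tested (median -0.21, against 0.08 over all genes tested). Of these, 6 were called lower and 1 higher, where 6.77% and 17.6% of all genes were. This list and those below were chosen with earlier results of these data known. Their counts and adjusted p-values are therefore a description, and nothing is read from them against these shares. The lower genes were led by Bhlhe40, a repressor in the circadian clock, at 15.2 ± 1.23 FPKM with the extract and 65.2 ± 4.37 FPKM in control (change -2.04, adjusted p = 4.97e-05). Rgs16, a regulator of G protein signalling, changed by -1.87 (adjusted p = 1.21e-05). Pfkfb3, which makes the activator of phosphofructokinase, changed by -1.84 (adjusted p = 1.21e-05). Hexokinase 2 (Hk2) changed by -1.23 (adjusted p = 7.08e-04). Outside the naming rule and chosen after their values were seen, the transcription factor gene Klf10 changed by -0.71 (adjusted p = 0.00168), Acly by -0.30 (adjusted p = 0.0439) and Elovl6, a fatty acid elongase and the called-higher gene, by 0.29 (adjusted p = 0.00436). The call of Acly ended when any library other than control replicate 1 was left out (adjusted p = 0.0669 to 0.141), with no filter (0.115), with a filter at 5 FPKM (0.0584) and with quantile normalization (0.0519). The 5 tested genes not called, also outside the naming rule, were Fgf21 (0.23), Acaca (0.16), Khk (0.02), Fasn (-0.08) and Scd1 (-0.13). Their adjusted p ran from 0.0705 (Acaca) to 0.886 (Khk). Bhlhe40, Hk2 and Pfkfb3 are also known targets of hypoxia-inducible factor, and what lay behind the changes of the list was not tested. With RCE replicate 1 left out, 2 of the list were called higher, Elovl6 and Acaca (adjusted p of Acaca = 0.0462). The same 2 were called higher without both libraries numbered 1 (adjusted p of Acaca = 0.0083). Over all 10870 genes, 2040 and 4364 were called higher in these 2 settings. With the replicate block 3 of the list were higher and 8 lower, where 46.6% and 15.9% of all genes were.

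Enzymes that make or use glucose-6-phosphate, the signal MondoA responds to, were called lower in 3 of 6 cases tested (median -0.27). The share called lower over all genes tested was 6.77% (median 0.08). Hk2, shared with the target list, was at 26.9 ± 2.31 FPKM with the extract and 64.7 ± 6.65 FPKM in control. Hk1, the hexokinase of most tissues, was at 14.2 ± 1.27 FPKM with the extract and 22.9 ± 1.44 FPKM in control (-0.66, adjusted p = 0.00283). The phosphoglucomutase gene Pgm1 changed by -0.34 (adjusted p = 0.0273), and this call ended without replicate 2 or 3 of either group (adjusted p = 0.0569 to 0.0956) and with no filter (0.0779). Outside the naming rule, the 3 tested genes not called were Gpi1 (-0.20, adjusted p = 0.244), G6pdx (0.21, adjusted p = 0.188) and Pgm2 (-0.08, adjusted p = 0.601). With the replicate block 5 were lower and 1, G6pdx, higher, where 15.9% and 46.6% of all genes were.

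In the network of factors that share Mlx or Max as a partner, 7 of 9 genes were tested (median 0.07). Of these, 2 were called lower and 1 higher, where 6.77% and 17.6% of all genes were. Mxi1, a MAX-binding repressor, fell to 2.77 ± 0.196 FPKM with the extract, against 5.31 ± 0.313 FPKM in control (-0.74, adjusted p = 7.08e-04). Mga, which also pairs with MAX, was higher (0.30, adjusted p = 0.00489). Mnt, which can pair with Mlx, changed by -0.60 (adjusted p = 0.0469). The call of Mnt ended without control replicate 1 (adjusted p = 0.0802), 2 (0.0871) or 3 (0.0891) and without RCE replicate 2 (0.149) or 3 (0.139). It also ended with no filter (0.146), with a filter at 5 FPKM (0.0637) and with quantile normalization (0.0563). With the replicate block 2 of the list were higher and 3 lower, where 46.6% and 15.9% of all genes were. Max itself was at 62.9 ± 7.44 FPKM in RCE and 67.0 ± 8.45 FPKM in control (-0.09, adjusted p = 0.613, and 0.0167 with the replicate block).

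Txnip's binding partner thioredoxin was not called. Txn1 was at 102, 169 and 170 FPKM in the RCE replicates, and at 94.0, 144 and 155 FPKM in the control replicates. Replicate 1 was the lowest in both groups, and the change was 0.16 (adjusted p = 0.708, and 0.00252 with the replicate block). Without both libraries numbered 1, Txn1 was called higher (0.18, adjusted p = 0.00769), where 4364 of all 10870 genes were. Where 17.6% of all genes were called higher, 1 of the 5 genes of the thioredoxin system was. This was thioredoxin reductase 1, Txnrd1, at 191 ± 5.58 FPKM with the extract and 157 ± 6.25 FPKM in control (0.28, adjusted p = 0.0126). The call of Txnrd1 ended with 1 library left out, either control replicate 3 (adjusted p = 0.0518), RCE replicate 2 (0.0648) or RCE replicate 3 (0.0575). With the replicate block 4 of the 5 were higher, where 46.6% of all genes were.

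Of the NEDD4-family ligases and their adaptors, 10 of 11 were tested, with a median of -0.01. Of them 1 was called lower, where 6.77% of all genes were. The one called was Smurf2 (-0.17, adjusted p = 0.0357), whose call ended when any library other than control replicate 1 was left out (adjusted p = 0.0685 to 0.126). Of the ligases that work with alpha-arrestins Nedd4 was the most abundant of those named here, at 182 ± 4.55 FPKM with the extract and 187 ± 4.50 FPKM in control (-0.04, adjusted p = 0.602). Itch was at 15.04 ± 1.56 FPKM with the extract and 13.9 ± 0.983 FPKM in control, Wwp1 at 16.8 ± 0.745 FPKM with the extract and 17.9 ± 0.430 FPKM in control, and Wwp2 at 12.8 ± 0.266 FPKM with the extract and 12.9 ± 0.364 FPKM in control. The change of Itch was 0.10 (adjusted p = 0.433, 0.0163 once blocked by replicate number, 0.0104 without both libraries numbered 1). That of Wwp1 was -0.09 (adjusted p = 0.222, or 0.0250 once blocked) and that of Wwp2 was -0.01 (adjusted p = 0.923). With the replicate block 1 was higher and 3 lower, where 46.6% and 15.9% of all genes were. Wwp1 was also called lower with median-of-ratios scaling (-0.17, adjusted p = 0.0376).

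Of the membrane proteins reported as arrestin clients, 4 of 7 were tested, with 2 called lower (median -0.10), where 6.77% of all genes were. These are RNA levels, and removal of the proteins from the cell surface was not measured. Slc2a1 (GLUT1), the transporter that Txnip removes from the surface, was at 23.3 ± 1.33 FPKM with the extract and 106 ± 4.09 FPKM in control (-2.14, adjusted p = 1.83e-05), and Slc2a3 (GLUT3) changed by -0.29 (adjusted p = 0.0096). Slc11a2 encodes the iron importer DMT1, which ligases recruited by Arrdc1 and Arrdc4 can mark for removal. It was at 6.74 ± 0.417 FPKM in RCE and 6.09 ± 0.322 FPKM in control, a change of 0.13. Its adjusted p was 0.171, 0.00869 with the block and 0.0181 without both libraries numbered 1. With the block 1 of the list was higher and 2 lower, where 46.6% and 15.9% of all genes were. Outside the alpha-arrestins, Arrb2, a beta-arrestin, was higher at 4.08 ± 0.221 FPKM with the extract and 2.35 ± 0.148 FPKM in control (0.60, adjusted p = 0.00109), and Arrb1 changed by -0.25 (adjusted p = 0.0297). The call of Arrb1 ended with control replicate 2 or 3, or RCE replicate 1 or 3, left out (adjusted p = 0.0513 to 0.0977) and with no filter (0.0793). Arrdc5 and the visual arrestin Arr3 were listed at 0 in all 6 libraries.

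**Figure D4:**
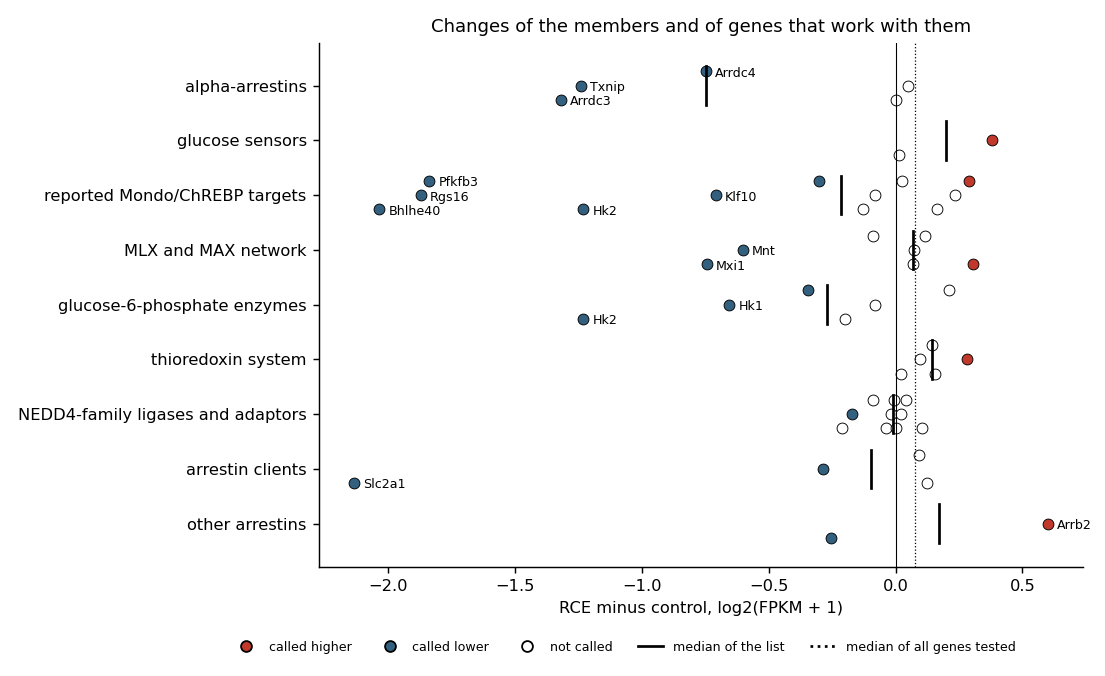
Change of each tested gene (RCE minus control, log2(FPKM + 1)) in the arrestins, the sensors and the 7 lists of genes that work with them. Filled points passed an adjusted p of 0.05 in limma, black bars are list medians, and the dotted line is the median of all genes tested. Txnip, Arrdc3 and Arrdc4 and several reported targets lie left of -0.5, while the ligases stay within 0.21 of 0.

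The genes whose pattern over the 6 libraries was most like that of Txnip were Dusp6, Arrdc3 and Ndrg1. Likeness was the root mean square difference of log2(FPKM + 1) after each gene was centred on its own mean, over the 7654 other genes averaging 5 FPKM or more, unnamed gene models left out. The difference was 0.0248 for Dusp6, an ERK phosphatase gene at 7.41 ± 0.185 FPKM with the extract and 19.4 ± 0.194 FPKM in control. It was 0.0491 for Arrdc3 and 0.0629 for Ndrg1. For Arrdc4 the nearest were Tiparp (0.0300), Havcr2 (0.0381) and Pfkl (0.0387), with Tiparp at 8.05 ± 0.244 FPKM in RCE and 14.0 ± 0.373 FPKM in control. For Mlxip they were Aaas (0.0093), Stox2 (0.0171) and Zfp9 (0.0236), with Aaas at 29.9 ± 1.46 FPKM in RCE and 22.7 ± 0.932 FPKM in control. The values of each pair of genes come from the same 6 libraries and share the split into groups.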

How the data were processed

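Stranded messenger RNA libraries of 6 samples were grouped by their labels as red clover extract (RCE, n = 3) or water (control, n = 3). The authors deposited FPKM values per gene and library, by the values and the submitters' processing notes, which list the build mm10 and the tools Cuffdiff 2.2.1, Cufflinks and STAR 2.5.4 but not what each did. What the sources used here do not give is the annotation, any filter and the use of strand.

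FPKM are not counts and fall when other transcripts take more of a library. limma 3.58.1 (R 4.3.3) was run on log2(FPKM + 1) with an intensity trend for the 10870 genes averaging 1 FPKM or more, 2-sided, with Benjamini-Hochberg adjustment over all of them and a threshold of 0.05, and was tested on simulated data. Depth was taken as the number of fragments at which low values of genes with 1 transcript came out whole, within 0.1 of a fragment (100% of 435 to 465 values per library, against a median of 14.6 to 15.9% and at most 42.7 to 50.8% at the other depths tried). Fragments of a gene are approximate and cover counting error only. Replicates differed by more than counting error (chi-square per degree of freedom 2.71 to 27.1), and each was used. All 21853 identifiers were in GENCODE M21 (mm10). RefSeq promoter windows (GRCm38.p6) matched all 8 members.

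Deviations from the group means correlated at 0.918, 0.620 and 0.681 within replicate numbers 1, 2 and 3, so the numbers were used as a block in an alternative. RCE 3 with control 2 (0.771) and RCE 2 with control 3 (0.724) correlated more than the matched pairs, so the values set number 1 apart and do not tell numbers 2 and 3 from each other. The members and lists were chosen with earlier results of these data known. Named were the 8 members, up to 4 called genes of each list by size of change with direct partners of a member, and the 3 genes most like Txnip, Arrdc4 and Mlxip. Symbols on more than 1 row (24) used the row with the highest mean. Also tried were pseudocounts of 0.1 and 0.5, a filter at 5 FPKM or none, quantile normalization, median-of-ratios scaling, the replicate block, and leaving libraries out.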

Additional observations from a re-analysis of the deposited data

How the results depend on the processing

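Under all 14 alternatives Txnip, Arrdc3 and Arrdc4 were called lower and Mlxip higher, and none of Arrdc1, Arrdc2 and Mlx was called in any alternative that kept it above the filter. The changes ran from -1.32 to -1.21 (Txnip), -1.51 to -1.31 (Arrdc3), -0.83 to -0.70 (Arrdc4) and 0.30 to 0.43 (Mlxip). Those of Arrdc1, Arrdc2 and Mlx took either sign, from -0.10 to 0.05, -0.06 to 0.07 and -0.07 to 0.04. The replicate block changed no call of a member. The median change of the arrestins minus that of Mlxip and Mlx was -0.95, and -1.05 with a pseudocount of 0.1. With a mean of at least 5 FPKM, which removes Arrdc1 and Arrdc2, it was -1.44.

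Counts over all genes, 1910 higher and 736 lower, were 867 and 485 with a mean of at least 5 FPKM, 911 and 1082 with median-of-ratios scaling, 785 and 857 with quantile normalization, 5060 and 1730 with the replicate block, and 4364 and 1480 without both libraries numbered 1. Higher calls made up 72.2% of the total, 45.7% with median-of-ratios scaling and 47.8% with quantile normalization. Leaving out 1 library gave 685 to 2040 higher and 394 to 734 lower. The 63 genes of the pathway lists, 45 of them tested, gave 4 higher and 14 lower, where 17.6% and 6.77% of all genes were. With the block they gave 13 higher and 21 lower, where 46.6% and 15.9% of all genes were. They gave 12 higher without both libraries numbered 1 and 9 lower with a mean of at least 5 FPKM. With 1 library left out they gave 3 to 5 higher and 9 to 13 lower. The cause of these shifts was not tested. Depth limits Mlxipl, at fewer than 5 fragments a library, and Arrdc2.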
